A study of Rattus norvegicus with 24 samples.

Results

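The comparison is between the hearts of vehicle-gavaged rats after 14 days and after 1 day of gavage, and it was read across all genes of the array. Its members are the 4 arrays titled as control heart at day 14 and the 4 titled as control heart at day 1, 8 of the 24 arrays of the series. All animals were male Wistar rats of the outbred RccHan stock, 7 to 8 weeks old when assigned. They received the vehicle, a mixture of ethanol, Kolliphor HS 15 (a solubiliser) and tap water in parts of 10, 40 and 50, by gavage on consecutive days until necropsy. Vehicle hearts of day 3 (4 arrays) and hearts of rats given 800 mg/kg metformin in place of 0 mg/kg (4 arrays each on days 1, 3 and 14) served for reference. The design gave 5 animals per group, of which 4 were arrayed here, 1 animal per array. RNA came from 30 mg of the left ventricle apex and was hybridised to 1-colour Affymetrix arrays. No animal of the series went without gavage, so growth, repeated handling, repeated vehicle and the batch of necropsy cannot be told apart in what follows.

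Rats of this age are still growing, and the ventricle enlarges with the body while most of its muscle cells no longer divide. The working heart takes most of its energy from fatty acids and also burns glucose, lactate, ketone bodies and the branched-chain amino acids leucine, isoleucine and valine. Branched-chain amino acids are first transaminated by Bcat2 in mitochondria, their keto acids then enter the branched-chain keto acid dehydrogenase, and separate enzymes finish each chain. PPAR-alpha is the nuclear receptor through which fatty acids raise genes of their own use, among them Ucp3, Pdk4 and Cpt1a.

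Values below are log2 intensities of the authors' normalized arrays, and differences are day 14 minus day 1 on that scale unless said otherwise. A difference of 1 is a 2-fold change on the authors' scale, which is not the scanner's own and may stretch or compress fold changes in RNA. The 8 arrays had log2 medians between 4.68 and 4.81 and correlated with each other at 0.987 to 0.992 over all features. Cardiomyocyte markers were bright in all 8. The mean over 7 of 8 listed markers, among them Tnnt2, Tnni3 and Myl2, was 16.9 to 17.0 at day 14 and 16.7 to 17.1 at day 1. Several of them lie near the top of the authors' scale, where differences may be compressed, which was not tested.

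Markers of other cell types differed between some arrays. The 6 tested erythroid genes, which encode globins and other red-cell proteins, were all lower at day 14, with a median difference of -1.43, and none passed the test. Their list score, the mean over members of the value minus that gene's mean over all 24 arrays, was 0.34, -1.80, 0.21 and -0.42 at day 14, against 0.81, 1.20, 0.32 and 1.22 at day 1. The groups overlapped by 1 pair of arrays, and replicate 2 of day 14 stood lowest. Alas2, the red-cell enzyme that starts haem synthesis, had 11.79, 8.06, 11.86 and 10.29 at day 14, against 12.67, 13.40, 11.77 and 13.80 at day 1. In the skeletal muscle list all 7 tested members were lower, and 1, Casq1, described below, was called (0.0561% of all genes were called lower). The list's score was -0.23, -0.06, -0.09 and -0.15 at day 14, against 0.04, 0.03, 0.17 and 1.40 at day 1. All day 14 scores thus lay below all day 1 scores, and replicate 4 of day 1 was far above the other 7. Myh4, a myosin of fast skeletal muscle, had 5.02, 5.28, 5.41 and 5.30 at day 14, against 5.29, 5.30, 5.34 and 9.67 at day 1. Without that array the skeletal muscle median was -0.05 in place of -0.43, and the Myh4 difference -0.06 in place of -1.15. Of the other marker lists, 3 of 3 tested adipocyte genes were lower, with a median of -0.44 and scores of -0.61 to 0.10 at day 14, against 0.01 to 0.23 at day 1. Smooth muscle and pericyte genes were lower in 7 of 7 (median -0.25) and endothelial genes in 5 of 6 (median -0.19), both with overlapping scores. The 3 tested B cell genes were all lower (median -0.31), with scores of -0.22 to -0.14 at day 14, against -0.05 to 0.27 at day 1. Their mean level lay close to the dim end, at 5.24 to 5.314 at day 14 and 5.404 to 5.727 at day 1. All 3 were higher over the same interval in metformin hearts (median 0.10). The 4 tested atrial genes had a median of 0.44 (3 higher, 1 lower) with overlapping scores. No member of these other marker lists passed the test. In tissue RNA, fewer cells of a type and less RNA per cell cannot be told apart.

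**Figure D1:**
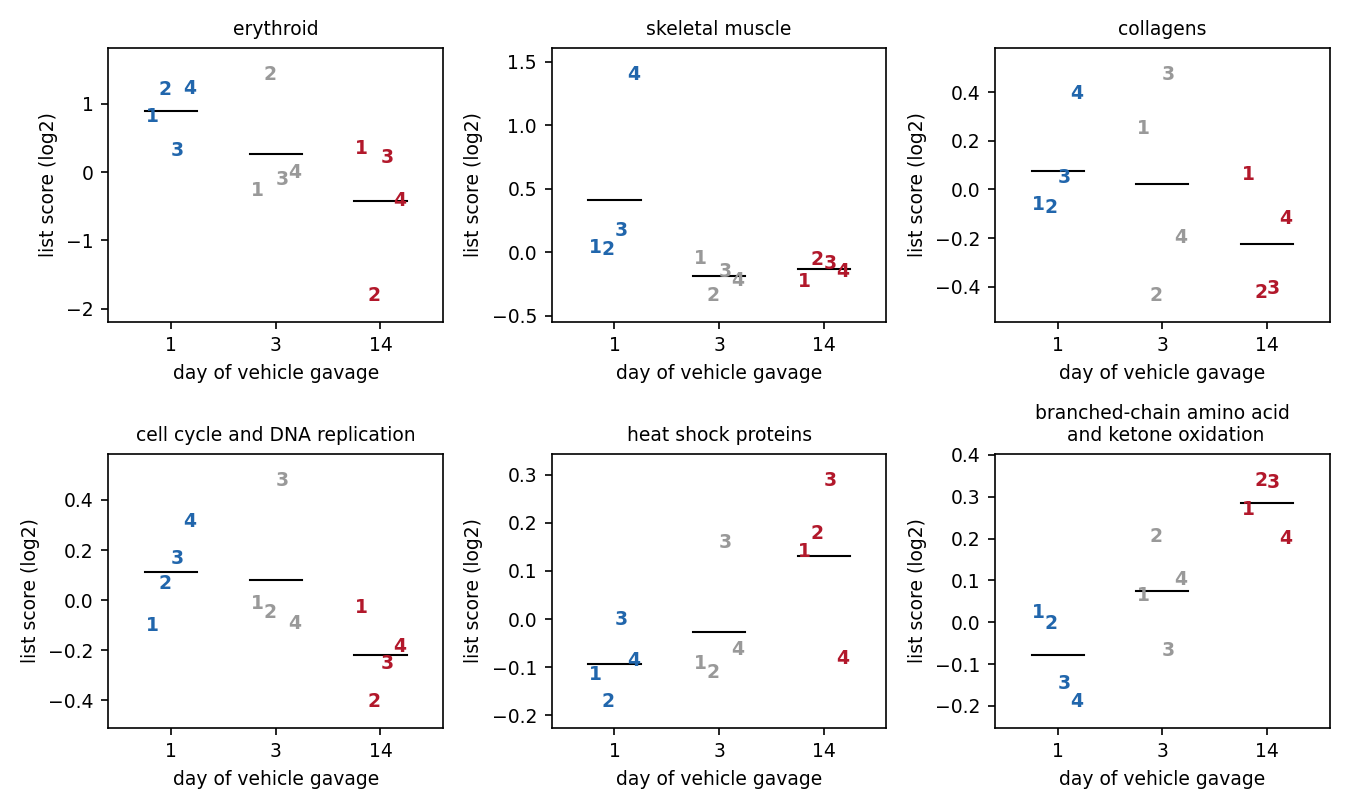
List scores per vehicle array on the vertical axis (log2, mean over members of the value minus the gene's mean over all 24 arrays) by day of gavage; digits are replicate numbers and bars group means. Replicate 4 of day 1 stands at 1.40 in the skeletal muscle panel, replicate 2 of day 14 at -1.80 in the erythroid panel, and the 4 day 14 arrays lie at 0.20 to 0.34 in the branched-chain panel, above the day 1 arrays at -0.19 to 0.02.

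Of 16031 genes tested, 61 passed an adjusted p of 0.05 in limma, 52 higher and 9 lower at day 14. That is 0.381% of genes called, 0.324% higher and 0.0561% lower. The called differences ran from 0.27 to 1.34 among higher genes and from -1.20 to -0.28 among lower genes, and 12 exceeded 1.5-fold and 4 exceeded 2-fold. In each of the 61 the 4 arrays of day 14 lay apart from the 4 of day 1, as they did in 8.41% of all genes tested (5.91% higher, 2.5% lower). The median difference over all genes was 0.01, and 52.1% of genes were higher. Brighter genes tended to higher differences, with a Spearman correlation of 0.26 across genes between the difference and the mean level over all 24 arrays. Genes are not independent of each other, and their differences come from the same 8 arrays.

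The number of calls leaned on the spread shared with the other groups and on single arrays. Fitted on the 8 arrays alone, limma called 1 gene, Ucp3, and on the 12 vehicle arrays 2, Pc and Igdcc4. Leaving out replicate 1, 2, 3 or 4 of day 14 gave 30, 6, 23 and 51 calls. Leaving out replicate 1, 2, 3 or 4 of day 1 gave 29, 28, 38 and 24. Pc, Igdcc4, Adamts12, Usp4, Ucp3 and Vezt were called in all 8 of these fits, and 9 of the 61 in none. With the erythroid score as a covariate 3 genes were called (Pc, Usp4 and Igdcc4), and with the skeletal muscle score 6. The split of 52 higher against 9 lower became 16 against 8 after a second quantile normalization, 13 against 5 after centring every array on its own median, and 15 against 8 after cyclic loess between arrays.

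The list for oxidation of branched-chain amino acids and ketone bodies was higher at day 14. All 17 tested members had a positive difference, with a median of 0.36 beside 0.01 for all genes. Of these, 4 (23.5%) passed the test, where 0.324% of all genes were called higher: Bcat2, Dbt, Ivd and Aldh6a1. In 10 of the 17 (58.8%) the groups did not overlap, where 5.91% of all genes were higher without overlap. The list scores of the 4 day 14 arrays, 0.27, 0.34, 0.33 and 0.20, all lay above the day 1 scores of 0.02, 0.00, -0.15 and -0.19. Members lay at 8.43 or more on the log2 scale, in the range of brighter genes. The median was 0.29 without replicate 4 of day 1, 0.40 with the erythroid score as a covariate and 0.29 with the skeletal muscle score.

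The 4 called members act at different steps, and their promoters are printed because these were the called genes of the list. Whether they are regulated together was not tested. The 250 bases before each start site are from RefSeq on the rat build GRCr8, on the gene's own strand, at chr1:105178889-105179138 for Bcat2, chr2:207166410-207166659 for Dbt, chr3:126305334-126305583 for Ivd and chr6:109829726-109829975 for Aldh6a1, the last on the minus strand. Capitals mark CCAAT, the core of the box bound by the factor NF-Y, or its reverse complement ATTGG.
Bcat2: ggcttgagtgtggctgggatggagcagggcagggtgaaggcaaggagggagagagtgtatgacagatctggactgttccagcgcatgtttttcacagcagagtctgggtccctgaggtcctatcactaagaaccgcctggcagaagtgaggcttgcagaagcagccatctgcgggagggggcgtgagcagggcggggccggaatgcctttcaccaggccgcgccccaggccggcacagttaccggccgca
Dbt: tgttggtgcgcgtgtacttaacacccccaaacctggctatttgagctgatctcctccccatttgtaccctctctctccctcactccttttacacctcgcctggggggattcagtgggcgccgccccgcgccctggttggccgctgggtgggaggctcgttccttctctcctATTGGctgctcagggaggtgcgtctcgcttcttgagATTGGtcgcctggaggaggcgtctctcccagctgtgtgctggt
Ivd: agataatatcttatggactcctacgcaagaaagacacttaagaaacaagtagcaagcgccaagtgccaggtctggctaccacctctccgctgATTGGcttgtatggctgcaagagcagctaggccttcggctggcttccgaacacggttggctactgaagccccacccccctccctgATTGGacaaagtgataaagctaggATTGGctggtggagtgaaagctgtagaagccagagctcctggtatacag
Aldh6a1: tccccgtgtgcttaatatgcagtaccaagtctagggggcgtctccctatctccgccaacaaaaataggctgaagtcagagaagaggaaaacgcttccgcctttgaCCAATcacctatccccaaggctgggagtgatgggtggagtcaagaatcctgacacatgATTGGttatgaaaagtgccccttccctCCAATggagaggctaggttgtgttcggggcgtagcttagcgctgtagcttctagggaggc
CCAAT occurred on either strand 2 times in Dbt, 3 times in Ivd and 3 times in Aldh6a1, and Bcat2 had none; 34.02% of 33469 rat promoters of this length hold at least 1. Neither the E box CACGTG, held by 5.59% of promoters, nor AAGGTCA, the element of estrogen-related receptors, held by 3.99%, was found in these 4 windows.

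Bcat2, on chromosome 1, encodes the mitochondrial transaminase that opens the pathway. It had 10.40, 10.22, 10.07 and 10.21 at day 14, against 9.76, 9.71, 9.59 and 9.52 at day 1, and every day 14 array lay above every day 1 array. It rose by 0.58 (SE 0.12, adjusted p = 0.0311), which is 1.5-fold, and lost the call when any 1 of the 8 arrays was left out. Dbt, on chromosome 2, encodes the acyltransferase core of the keto acid dehydrogenase. It had 15.30, 15.51, 15.51 and 15.48 at day 14, against 15.00, 14.98, 14.97 and 14.80 at day 1, a rise of 0.51 (SE 0.09, adjusted p = 0.0114). Ivd, on chromosome 3, encodes the dehydrogenase of the leucine chain. It had 14.09, 14.07, 13.88 and 13.88 at day 14, against 13.71, 13.40, 13.31 and 13.41 at day 1, a rise of 0.52 (SE 0.09, adjusted p = 0.0113). Both genes kept their call in 7 of the 8 fits without 1 array. Aldh6a1, on chromosome 6, encodes the dehydrogenase that ends valine breakdown. It had 16.70, 16.82, 16.74 and 16.77 at day 14, against 16.57, 16.40, 16.46 and 16.39 at day 1, a rise of 0.30 (SE 0.06, adjusted p = 0.032) that kept its call in 1 of those 8 fits.

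The 13 other members had differences of 0.08 to 0.56 and did not pass the test. Bckdha and Bckdhb, the remaining catalytic subunits specific to the dehydrogenase complex, differed by 0.38 (adjusted p = 0.1) and 0.46 (adjusted p = 0.17) without overlap between groups. Hibadh, an enzyme of valine breakdown, had means of 9.76 ± 0.04 at day 14 and 9.52 ± 0.04 at day 1 (SD, n = 4 each), with an adjusted p of 0.0935. Bckdk, the kinase that switches the complex off, and Ppm1k, the phosphatase that switches it on, differed by 0.22 and 0.36, both with overlapping groups. Among the ketone enzymes, Bdh1 differed by 0.56, Acat1 by 0.22 and Oxct1 by 0.08, with adjusted p of 0.211, 0.295 and 0.664. Acadsb, of the isoleucine chain, varied most, at 13.0 ± 0.6 at day 14 and 12.5 ± 0.8 at day 1 (SD, n = 4 each).

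**Figure D2:**
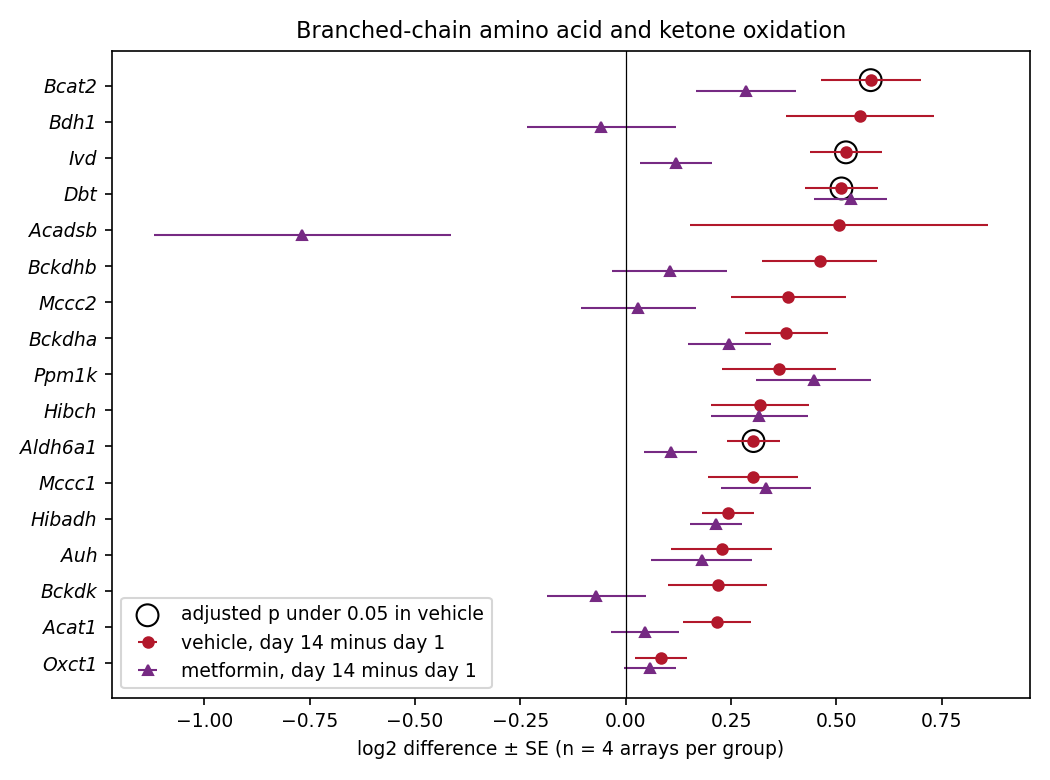
Log2 difference between day 14 and day 1 on the horizontal axis for the 17 tested genes that oxidise branched-chain amino acids and ketone bodies, in vehicle hearts (circles) and metformin hearts (triangles), with bars of 1 SE and n = 4 arrays per group; rings mark an adjusted p under 0.05 in vehicle hearts. All 17 vehicle values lie above 0, with a median of 0.36, and the metformin median is 0.12.

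Pc, pyruvate carboxylase, had the smallest adjusted p of all genes. This enzyme turns pyruvate into oxaloacetate and so refills the tricarboxylic acid cycle. Pc, on chromosome 1, had 8.12, 8.17, 8.10 and 7.88 at day 14, against 7.45, 7.5, 7.51 and 7.57 at day 1, a rise of 0.56 (SE 0.07, adjusted p = 0.00104). Gstz1, an isomerase of tyrosine breakdown, had 10.09, 9.87, 10.20 and 10.46 at day 14, against 9.04, 8.82, 8.91 and 8.47 at day 1. Its rise of 1.34 (SE 0.27, adjusted p = 0.0311), or 2.54-fold, exceeded that of any other called gene, and the call was lost whenever 1 of the 8 arrays was left out. Aldh4a1, of proline breakdown, rose by 0.61 (adjusted p = 0.0114), with 10.02, 10.11, 9.98 and 9.95 at day 14, against 9.61, 9.23, 9.40 and 9.39 at day 1. Gcat, which acts in threonine breakdown, rose by 0.55 (adjusted p = 0.0114), and Aldh9a1, an aldehyde dehydrogenase used in carnitine synthesis, by 0.29 (adjusted p = 0.0311).

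The remaining large rises were in genes of varied roles. Kcna2, a voltage-gated potassium channel subunit, had 7.59, 7.87, 7.70 and 7.98 at day 14, against 6.49, 6.43, 7.09 and 6.28 at day 1, and rose by 1.21 (SE 0.21, adjusted p = 0.0114). Lrrc2, a leucine-rich repeat protein, had 12.99, 13.47, 13.44 and 13.30 at day 14, against 12.45, 12.41, 12.44 and 11.64 at day 1. Its rise of 1.07 (adjusted p = 0.0494) shrank to 0.87 (adjusted p = 0.194) without replicate 4 of day 1, the array with the low value. Ptgr1, a reductase of prostaglandins and lipid aldehydes, rose by 0.76, the membrane protease homologue Adam1a by 0.72, and Adcy1, an adenylyl cyclase, by 0.66. Lsamp, a neuronal adhesion protein, rose by 0.58, with 4 day 14 arrays of SD 0.03. Pxmp2, a channel of the peroxisome membrane, Klhl21, a ubiquitin ligase adaptor, and Armc2 rose by 0.57, 0.55 and 0.54, Klhl21 and Armc2 at levels near 6. The highest adjusted p among these 7 was 0.0424.

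Igdcc4, a membrane protein of the immunoglobulin superfamily, had 6.89, 6.91, 6.86 and 6.92 at day 14, against 6.42, 6.33, 6.54 and 6.46 at day 1, and rose by 0.46 (SE 0.06, adjusted p = 0.00136). Usp4, a deubiquitinase, had 12.74, 12.71, 12.80 and 12.70 at day 14, against 12.44, 12.42, 12.37 and 12.46 at day 1, and rose by 0.32 (SE 0.05, adjusted p = 0.00493). Mylk3, the cardiac myosin light chain kinase, had 16.32, 16.49, 16.49 and 16.39 at day 14, against 16.04, 15.94, 16.14 and 15.84 at day 1. It rose by 0.44 (adjusted p = 0.0139). Among 16 tested genes of the adult sarcomere, whose median difference was 0.00, Mylk3 alone was called (0.324% of all genes were called higher). Gaa, the lysosomal glucosidase that digests glycogen, and Epm2a, the glycogen phosphatase laforin, rose by 0.56 (adjusted p = 0.0426) and 0.46 (adjusted p = 0.0233). Pink1, the kinase that marks damaged mitochondria, rose by 0.39 (adjusted p = 0.0303), and Mavs, an antiviral adaptor on mitochondria, by 0.49 (adjusted p = 0.0494). Tsc2, which restrains mTOR complex 1, rose by 0.31 (adjusted p = 0.0213), and Oga, which removes O-linked N-acetylglucosamine from proteins, by 0.38 (adjusted p = 0.0114).

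**Figure D3:**
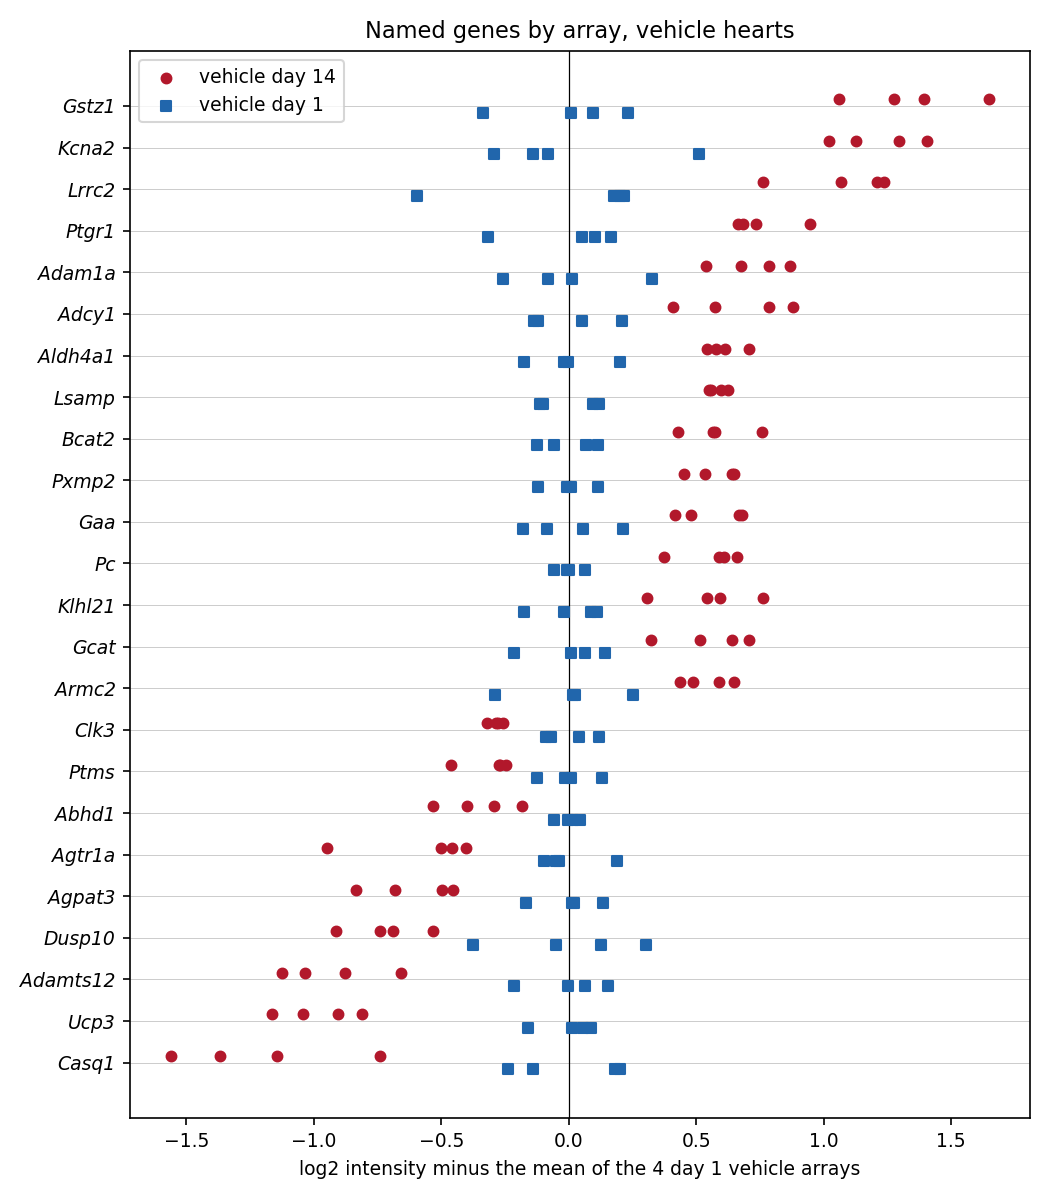
Log2 intensity minus the mean of the 4 day 1 vehicle arrays on the horizontal axis, for the 15 called genes with the largest rises and the 9 called genes that fell; circles are day 14 arrays and squares day 1 arrays. The circles lie to the right of all squares of their gene from Gstz1 (1.34) to Armc2 (0.54) and to the left from Clk3 (-0.28) to Casq1 (-1.20).

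Among the 9 genes that fell, Casq1, Ucp3 and Adamts12 fell the furthest. Casq1, on chromosome 13, encodes the calcium store protein of fast skeletal muscle. It had 9.73, 9.54, 10.36 and 9.96 at day 14, against 11.28, 11.30, 10.96 and 10.86 at day 1, and fell by 1.20 (SE 0.21, adjusted p = 0.0114). Replicate 4 of day 1, the array with high Myh4, had the lowest Casq1 of its group, and without it Casq1 fell by 1.28 (adjusted p = 0.0285). Ucp3, on chromosome 1, encodes a mitochondrial carrier of the uncoupling protein family. It had 6.88, 6.65, 6.79 and 6.53 at day 14, against 7.71, 7.75, 7.78 and 7.53 at day 1, and fell by 0.98 (SE 0.15, adjusted p = 0.00609). Adamts12, on chromosome 2, encodes a secreted metalloproteinase. It had 9.34, 9.11, 8.87 and 8.96 at day 14, against 10.15, 9.99, 9.78 and 10.06 at day 1, and fell by 0.92 (SE 0.13, adjusted p = 0.00225). With the erythroid score as a covariate its difference was -0.76 with an adjusted p of 0.0613.

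The other 6 fell by less. Dusp10, a phosphatase of stress-activated kinases, had 8.11, 7.95, 7.90 and 7.73 at day 14, against 8.27, 8.59, 8.94 and 8.77 at day 1, and fell by 0.72 (adjusted p = 0.032). Agpat3, an acyltransferase of phospholipid synthesis, had 7.37, 7.03, 7.41 and 7.19 at day 14, against 7.70, 7.88, 8.00 and 7.89 at day 1, and fell by 0.62 (adjusted p = 0.0114). Agtr1a, an angiotensin II receptor, lay close to the dim end at 6.08, 6.03, 5.99 and 5.54 at day 14, against 6.45, 6.39, 6.44 and 6.68 at day 1. It fell by 0.58 (adjusted p = 0.0476) and lost its call whenever 1 of the 8 arrays was left out. Abhd1, Ptms and Clk3 fell by 0.35, 0.31 and 0.28, with adjusted p of 0.032, 0.0405 and 0.0291.

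PPAR-alpha responsive genes were lower on balance. Of 19 tested members 15 had a negative and 4 a positive difference, with a median of -0.15. Ucp3 alone was called (0.0561% of all genes were called lower). In 7 members the day 14 arrays lay below all day 1 arrays (2.5% of all genes did). Adipocyte markers were also lower (median -0.44), and their part in this list's difference was not tested. Pdk4, the kinase that shuts pyruvate dehydrogenase, had 12.95, 12.91, 12.98 and 11.80 at day 14, against 13.97, 13.77, 14.38 and 13.09 at day 1, a difference of -1.14 with an adjusted p of 0.444. Aqp7, a glycerol channel, had 7.74, 7.18, 6.92 and 7.24 at day 14, against 8.56, 8.07, 8.18 and 8.33 at day 1, a difference of -1.01 with an adjusted p of 0.1. Cpt1a, the carnitine transferase that admits long-chain fatty acids, and Plin5, a lipid droplet protein, differed by -0.48 (adjusted p = 0.266) and -0.39 (adjusted p = 0.171). The median ran from -0.10 without replicate 1 of day 1 to -0.20 without replicate 1 of day 14. In the 22 genes of fatty acid oxidation 18 differences were negative and 4 positive, with a median of -0.10 and no call. The median was -0.05 without replicate 2 of day 14 and -0.01 with the erythroid score as a covariate. Echs1, a hydratase of the spiral, differed by 0.30, opposite to the list, with an adjusted p of 0.16.

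Cell cycle and DNA replication genes were lower in 38 of 40 members, with a median of -0.29, and none passed the test. The mean level of the list was 5.779 to 6.151 at day 14 and 6.08 to 6.495 at day 1, beside array medians of 4.68 to 4.81. Dimmer genes tended to lower differences, as given above, and the part of level in this list was not tested. In 9 members all day 14 arrays lay below all day 1 arrays (2.5% of all genes did), and 16 were lower at an unadjusted p under 0.05, as were 3.64% of all genes. Ube2c, a ubiquitin carrier of mitotic exit, had 6.26, 6.10, 6.24 and 5.99 at day 14, against 6.53, 6.53, 6.77 and 6.80 at day 1, a difference of -0.51 with an adjusted p of 0.0935. Mki67, the proliferation antigen, had 8.55, 7.46, 7.93 and 8.29 at day 14, against 8.31, 8.88, 9.31 and 9.72 at day 1, a difference of -1.0 with overlap and an adjusted p of 0.415. The list score was -0.03, -0.40, -0.25 and -0.19 at day 14, against -0.10, 0.07, 0.17 and 0.31 at day 1. The arrays with the lowest and the highest score were also those with the lowest erythroid and the highest skeletal muscle score. Without replicate 4 of day 1 the median was -0.23 with 37 members lower, and it was -0.25 with the erythroid score as a covariate.

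Collagens were lower in 17 of 18 members, with a median of -0.34 and no call. Only Col3a1 had groups apart (2.5% of all genes were lower without overlap). Col1a1 and Col3a1, the main fibrillar collagens of heart, differed by -0.79 (adjusted p = 0.435) and -0.76 (adjusted p = 0.345). Col1a1 had 12.49, 11.41, 11.64 and 11.99 at day 14, against 12.53, 12.26, 12.52 and 13.35 at day 1. Its highest array was replicate 4 of day 1, and without that array the list's median was -0.20 with 15 members lower. It was -0.21 without replicate 2 of day 14 and -0.06 with the skeletal muscle score as a covariate. The 30 genes of matrix and collagen processing had a median of -0.15 (24 lower, 6 higher, no call), which was -0.03 without the same array and 0.06 with the skeletal muscle score as a covariate. Endothelial and smooth muscle markers were also lower (medians -0.19 and -0.25), and their part was not tested.

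Heat shock proteins and a list of potassium and sodium channels were higher on balance, and no member of either list was called. Kcna2, the channel gene called above, is not on that list. For heat shock proteins 19 of 20 members had a positive difference, with a median of 0.16, which was 0.09 after a second quantile normalization. Hspa1a, an inducible chaperone whose near-identical copy Hspa1b it may share probes with, had 6.86, 6.63, 7.22 and 5.42 at day 14, against 4.76, 5.33, 5.95 and 5.36 at day 1. The difference of 1.18 had an adjusted p of 0.149, and replicate 4 of day 14 lay among the day 1 arrays. Its day 1 values lay close to the dim end. Leaving out that array gave a difference of 1.55 (adjusted p = 0.0318). This was the only call in 8 fits without 1 array, among which the highest adjusted p was 0.349. Hsph1, a chaperone of the same response, differed by 0.62 (adjusted p = 0.126) with the same array low. Without that array the difference was 0.77 (adjusted p = 0.0435), again the only call in 8 such fits, with 0.32 the highest adjusted p. The array was singled out for its low values, so these calls lend no support to a rise. For potassium and sodium channels 14 of 17 differences were positive, with a median of 0.23 and a range of -0.73 to 0.86. In 4 of the 17 the day 14 arrays lay above all day 1 arrays (5.91% of all genes did). At an unadjusted limma p under 0.05, 8 were higher and 2 lower, as were 7.48% and 3.64% of all genes. Kcnip2, the subunit of the transient outward current, had 17.96, 17.69, 18.12 and 17.88 at day 14, against 17.24, 17.40, 17.58 and 17.28 at day 1. Its difference was 0.54 (adjusted p = 0.157), that of the pacemaker channel gene Hcn2 0.68 (adjusted p = 0.157) and that of the background channel gene Kcnk3 0.39 (adjusted p = 0.139), each without overlap (atrial markers had a median of 0.44, and their part was not tested), while Scn3b, a sodium channel subunit, differed by -0.39 (adjusted p = 0.119).

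Lists of mitochondrial and sugar metabolism had small positive medians. Respiratory complex I subunits had a median of 0.07 (30 of 35 higher), which was 0.03 without replicate 2 of day 14. Complexes III to V had a median of 0.01, the tricarboxylic acid cycle 0.05, and glycolysis and glycogen genes 0.05 (22 of 28 higher), all without a call. The glycolysis and glycogen median ran from 0.02 with cyclic loess to 0.09 with the erythroid score as a covariate. In 5 of its 28 members the day 14 arrays lay above all day 1 arrays (5.91% of all genes did), and 8 were higher at an unadjusted p under 0.05, as were 7.48% of all genes. Its scores were 0.04 to 0.17 at day 14, against -0.04 to -0.01 at day 1, and those of the tricarboxylic acid cycle 0.00 to 0.04 at day 14, against -0.04 to -0.02 at day 1. Over all 45 lists the scores lay apart in 10, higher in 6 and lower in 4. The higher were branched-chain and ketone oxidation, glycolysis and glycogen, the tricarboxylic acid cycle, potassium and sodium channels, NRF2 antioxidant genes, and adrenergic and muscarinic signalling. The lower were B cell, skeletal muscle, PPAR-alpha responsive genes, and growth factor and IGF axis. Single genes lay apart in 8.41% of those tested, but a score averages several genes, so this share is no like reference. Some lists share members, all rest on the same 8 arrays, and they were chosen with earlier results of these data known. Whether 10 is more than chance gives was not tested. Scores of heat shock proteins, collagens and cell cycle genes overlapped. Slc2a4, the insulin-responsive glucose transporter, differed by 0.45 (adjusted p = 0.0742). Cytosolic ribosomal proteins had a median of -0.04. Of 19 cardiac stress and fetal genes none was called. Myh7, the slow myosin heavy chain, had 18.51, 18.65, 18.50 and 18.93 at day 14, against 18.41, 18.40, 18.39 and 18.05 at day 1, a difference of 0.34 with an adjusted p of 0.267, near the top of the scale. The 25 tested genes of the growth factor and IGF axis had a median of 0.01 (13 higher, 12 lower, no call). In 3 of them the day 14 arrays lay below all day 1 arrays (2.5% of all genes did). Of this list, the imprinted genes Mest and Peg3 differed by -1.07 (adjusted p = 0.242) and -0.73 (adjusted p = 0.18) without overlap. No clock gene was called, with Bmal1 at 0.07 and Nr1d1 at 0.61 (adjusted p of 0.945 and 0.685).

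**Figure D4:**
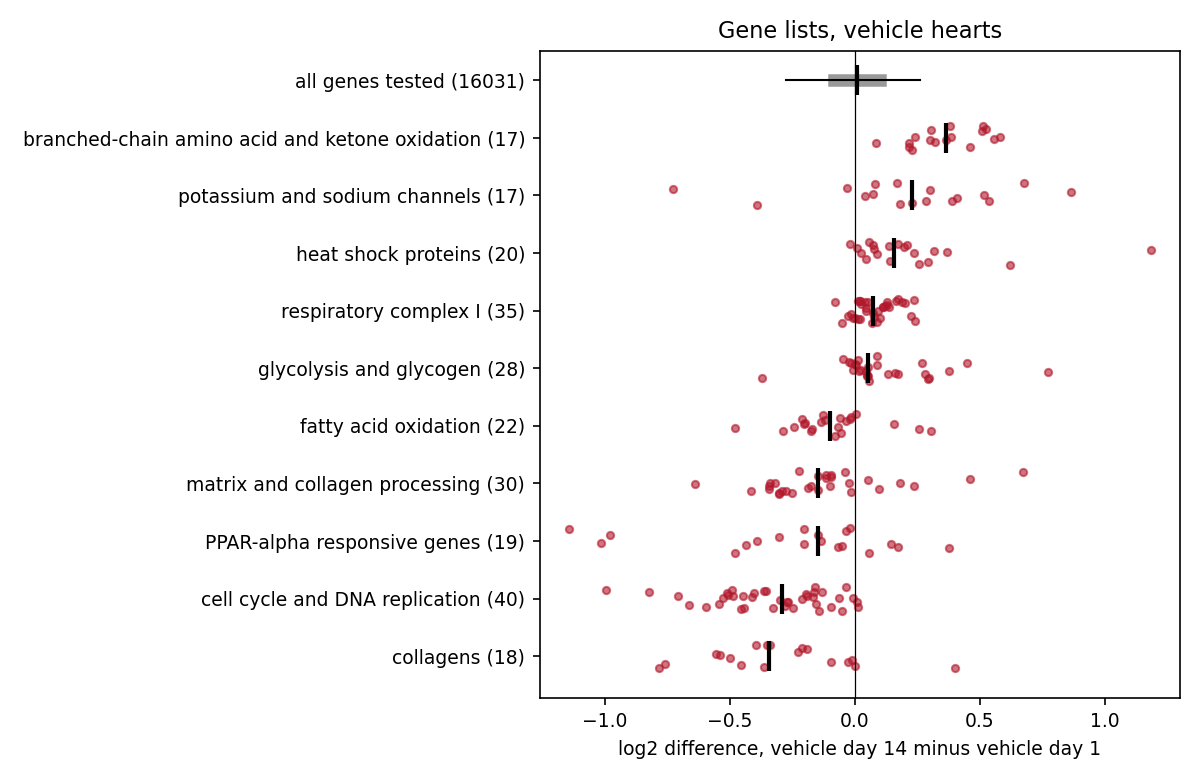
Log2 difference, vehicle day 14 minus vehicle day 1, on the horizontal axis for the tested members of 10 lists (points; number of members in brackets; vertical ticks are medians; vertical scatter within a row is only for legibility), with all 16031 genes as median, quartiles and the 5th to 95th percentile. Medians run from 0.36 for branched-chain and ketone genes to -0.34 for collagens, beside 0.01 for all genes.

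Day 3 vehicle hearts share their reference arrays with both ends of the interval, so their values are only set side by side. No gene (0%) was called between day 3 and day 1 by limma (699 at an unadjusted p under 0.05, smallest adjusted p 0.375). Between day 14 and day 3, 2 genes were called (0.0125% of genes), Adamts12 at -0.80 and Fam162a, a mitochondrial protein, at 0.51. A moderated F statistic over the 3 vehicle days called 26 genes (0.162% of genes), 25 of them among the 61. Adamts12 averaged 9.99, 9.87 and 9.07 on days 1, 3 and 14, and Ucp3 7.69, 6.96 and 6.71. Casq1 averaged 11.10, 10.14 and 9.90 on the same days. Pc averaged 7.51, 7.88 and 8.07, and Gstz1 8.81, 9.54 and 10.15. The branched-chain list had a median difference from day 1 of 0.15 on day 3 and 0.36 on day 14. Other lists were not all graded in this way. On the same days PPAR-alpha responsive genes had -0.15 and -0.15, collagens -0.02 and -0.34, and cell cycle genes -0.03 and -0.29. Heat shock proteins had 0.03 and 0.16, and potassium and sodium channels 0.10 and 0.23.

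Metformin hearts covered the same interval with 8 arrays of their own, none of which is in the vehicle comparison. The 2 comparisons share the estimate of spread, the authors' processing, the choice of cluster and the filter on dim genes. The labels name no batch, so a batch that goes with the day could also be common to both and cannot be told apart. Between day 14 and day 1 of metformin, 65 genes were called (0.405% of genes), 38 higher (0.237%) and 27 lower (0.168%). Of the 61 genes called in vehicle hearts, 57 had the same sign in metformin hearts, as 60.9% of all genes did, and 36 reached an unadjusted p under 0.05 with that sign, where 11.9% of all genes reached it with either sign. In the vehicle direction their median was 0.22 in metformin hearts and 0.45 in vehicle hearts, in which they had been selected, so the 2 medians do not compare the treatments. A total of 12 were called in both. The vehicle calls favour genes with a small estimate of spread, and both tests share that estimate. The counts of 36 and 12 may therefore be raised by the selection. The 9 higher in both were Dbt, Ptgr1, Oga, Vezt, Dhdds, Bltp2, Mlx, Pc and Asah2, and the 3 lower were Adamts12, Agpat3 and Ucp3.

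Adamts12 in metformin hearts had 9.09, 9.26, 9.08 and 8.85 at day 14, against 10.23, 10.42, 10.48 and 10.44 at day 1, a fall of 1.33 (adjusted p = 1.61e-05). Dbt had 15.20, 15.15, 15.33 and 15.36 at day 14 of metformin, against 14.67, 14.78, 14.77 and 14.67 at day 1, a rise of 0.53 (adjusted p = 0.0101). Ivd differed by 0.12 there (adjusted p = 0.63), with 13.58, 13.38, 13.44 and 13.56 at day 14, against 13.33, 13.29, 13.48 and 13.39 at day 1. Agtr1a, Jade1 and Zfp318 had the opposite sign in metformin hearts, at 0.09, -0.03 and -0.03, and Oxsr1 stood at 0.00.

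The test of the difference between the 2 intervals called no gene (0%) by limma, with 853 at an unadjusted p under 0.05 and a smallest adjusted p of 0.392. For Ivd the metformin change was lower by 0.40 (SE 0.12, adjusted p = 0.66), and for Dbt it was higher by 0.02 (SE 0.12, adjusted p = 0.999). The smallest adjusted p belonged to Cyria and Slc41a3, a magnesium transporter. Slc41a3 differed by -0.46 in metformin hearts and 0.73 in vehicle hearts, and Cyria by -0.46 in metformin hearts and 0.42 in vehicle hearts. The median of the branched-chain list was 0.12 in metformin hearts (14 higher, 3 lower, Dbt called) and 0.36 in vehicle hearts. Cell cycle genes had a median of -0.38 in metformin hearts and -0.29 in vehicle hearts. Collagens had -0.45 in metformin hearts and -0.34 in vehicle hearts, and PPAR-alpha responsive genes -0.25 in metformin hearts and -0.15 in vehicle hearts. The erythroid median was -0.42 in metformin hearts and -1.43 in vehicle hearts. Kcnip2 and Ankrd1, a stress-responsive muscle gene, were called in metformin hearts at 0.77 (adjusted p = 0.0316) and 0.44 (adjusted p = 0.0419), beside 0.54 and 0.27 in vehicle hearts.

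**Figure D5:**
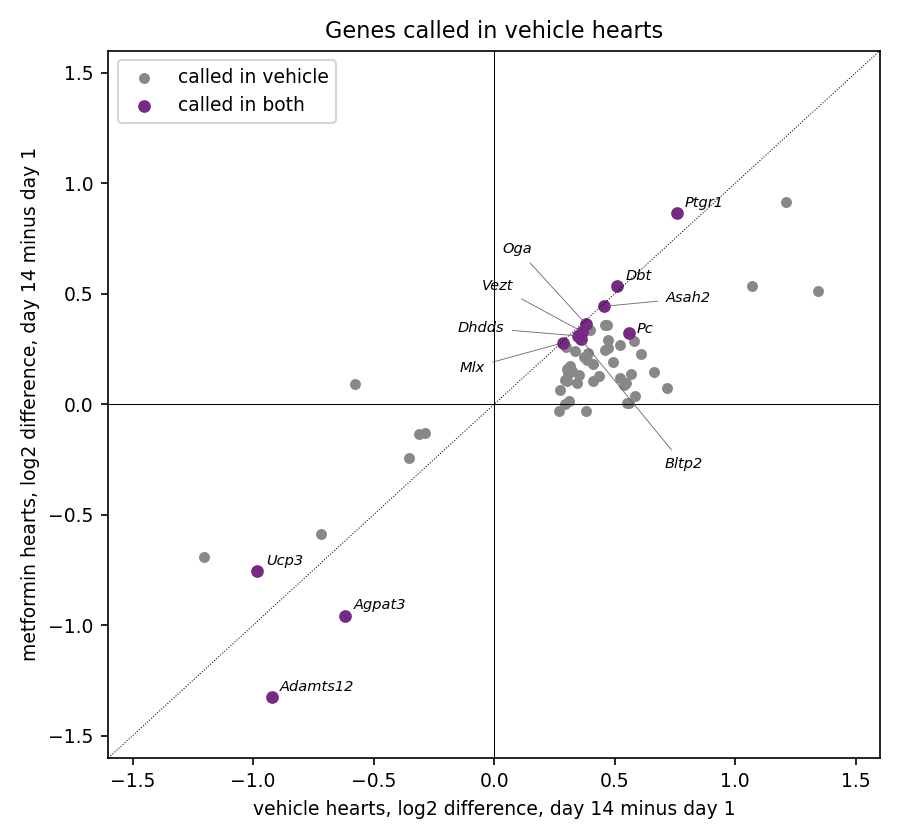
Log2 difference between day 14 and day 1 in metformin hearts (vertical axis) and in vehicle hearts (horizontal axis) for the 61 genes called in vehicle hearts; the 12 named points were called in both, and the dotted line marks equal differences. The genes were selected on the horizontal axis, so smaller values on the vertical axis carry no comparison of the treatments. Adamts12 lies at -1.33 in metformin hearts and -0.92 in vehicle hearts.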

How the data were processed

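The deposited value table holds linear intensity values, 1 per array and transcript cluster, normalized by the authors; per the submitters' processing notes RMA was used, with program, version and options not given in the sources used here. The highest value of an array was 999974, so the scale is not the scanner's. The planned tests assumed log2 values, and log2 was therefore taken first.

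Of 68842 clusters, 23446 carried 1 gene symbol, 505 several and 44891 none; symbols were updated through RefSeq names (GRCr8) for 22077 clusters by gene ID, 1227 by symbol and 127 by synonym, and 15 kept the platform's. The brightest cluster represented a gene, and genes above the array median on 4 or more arrays were tested, which left 16031 of 22037. With limma 3.58.1 (R 4.3.3, statmod 1.5.0), a model with group means was fitted over the 24 arrays, with moderated two-sided tests and Benjamini-Hochberg adjustment; genes were called at an adjusted p under 0.05. The procedure was run on simulated data in which every gene varied independently. That run does not cover differences shared by many genes of an array, such as those in the marker scores. With 1 array per animal, the number of arrays limits the precision.

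Named genes were up to 15 of the largest called changes in each direction with groups apart, for each list the 4 members of smallest p, the 5 with the smallest p of the interval difference and of the F statistic, and a short preset group; Igdcc4, Usp4, Pink1, Mavs, Tsc2, Epm2a, Aldh9a1, Oga, Fam162a and other called genes outside it were named after their values were seen, as were some further list members. The comparison, the 30 pathway and 15 marker lists and the tests were chosen with earlier results of these data known, and no list was tested for enrichment. Groups and replicate numbers came from the sample titles. Alternatives covered array scaling, an added 16 before log2, dim-gene filters, cluster means, the arrays fitted, array weights, a replicate block, marker scores as covariates and leaving out each array. Same-numbered arrays of day 14 and day 1 did not deviate together (correlations -0.029, 0.132, -0.034 and -0.032), so numbers were not taken as pairs.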

Additional observations from a re-analysis of the deposited data

Results flagged for a closer look

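In 72 sets of 4 arrays examined, 6 held an array far from the other 3 by Dixon's criterion, where chance gives about 1 in 20. Ptms in vehicle hearts of day 14 was 7.72 in replicate 4 and 7.91 to 7.94 in the others. The PPAR-alpha score of day 14 was -0.082 in replicate 1 and -0.213 to -0.191 in the others, and the matrix score of day 14 was 0.157 in the same array and -0.228 to -0.182 in the others. Lrrc2 at day 1 was 11.64 in replicate 4 and 12.41 to 12.45 in the others. The fatty acid oxidation score of day 1 was 0.123 in replicate 1 and -0.040 to -0.015 in the others. The skeletal muscle score of day 1 was 1.40 in replicate 4 and 0.026 to 0.172 in the others. The causes were not tested.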

How the results depend on the processing

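The 61 calls between day 14 and day 1 of vehicle became 24 after a second quantile normalization, 18 with centred arrays, 23 with cyclic loess, 28 with no filter on dim genes, 100 with a stricter one, 1 on the 8 arrays compared, 2 on the 12 vehicle arrays, 199 with array weights, 3 with the erythroid score and 6 with the skeletal muscle score as covariate, and 6 to 51 when 1 array was left out. An added 16 before log2, cluster means and a trended robust fit gave 65, 62 and 62. With the replicate number as a block 36 were called and 26 of the 61 calls were lost. The 65 calls in metformin hearts became 34 without the filter, 37 with array weights, 39 with the replicate block and 11 to 78 when 1 array was left out. The 2 calls between day 14 and day 3 became 1 under each of the 3 scalings and 0 without the filter, on the 12 vehicle arrays, with the replicate block and with either covariate. The 26 calls of the F statistic became 5, 5 and 6 under quantile, centring and loess, 6 without the filter, 0 on the 12 vehicle arrays, 65 with array weights, 6 with the replicate block, 0 with the erythroid and 3 with the skeletal muscle score. The difference between intervals gave 0 calls in every alternative run. Signs turned in 5 values, each under a covariate built from the same markers or moving with them: Alas2 at 0.0013 and the erythroid median at 0.0132 with the erythroid score, and Myh4 at 0.4429, the skeletal muscle median at 0.1439 and the matrix median at 0.0645 with the skeletal muscle score. No called gene changed sign in any alternative. The cause of these changes was not tested. Arrays of 4 rats per group, no detection calls and the spread shared by 24 arrays limit the calls.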
